A study of Mus musculus with 12 samples.

Results

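The 6 genes described here are the RUNX transcription factors Runx1, Runx2 and Runx3, their binding partner Cbfb, and Cbfa2t2 and Cbfa2t3, which encode corepressors of the ETO family. They were chosen by name as the RUNX family with its partner genes, and they make up 6 of the 38924 gene IDs in the expression table. All 6 passed the filter on low values, which kept the 12718 genes with at least 1 TPM (transcripts scaled to a fixed library sum) in at least 4 libraries.

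RNA was measured by bulk sequencing in 12 libraries of sorted bone marrow progenitors from wild-type female C57Bl/6J mice, 4 libraries for each of 3 cell types. Common lymphoid progenitors (CLP) were gated as Lin- Sca1lo cKitlo IL7Ra+ Flk2+, granulocyte-macrophage progenitors (GMP) as Lin- Sca1- cKit+ CD150- CD34+ FcgR+, and lymphoid-primed multipotent progenitors (LMPP) as Lin- Sca1+ cKit+ CD150- CD34+ Flk2hi. The labels name no altered allele and no agent in any group, and all 3 groups came from marrow depleted of cells carrying CD3e, CD11b, B220, Gr-1 or TER-119. The titles place 2 libraries of each type in batch 1 and 2 in batch 2. The sources used here give neither the age of these mice nor the number of animals behind a type's libraries, so p-values measure the spread between libraries, which may be technical.

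RUNX proteins bind DNA through a conserved runt domain that recognises core sequences such as TGTGGT. CBFB does not contact DNA itself, but it stabilises RUNX proteins on their sites, so each RUNX factor works as a heterodimer with it. Runx1 is required for the emergence of blood stem cells in the embryo and shapes lymphoid and myeloid differentiation in the adult. Runx2 is best known as the master regulator of bone formation and is also expressed in plasmacytoid dendritic cells, where it acts in their maturation and exit from the marrow. Runx3 silences Cd4 in cytotoxic T cells and acts in natural killer and other lymphoid cells. The ETO-family proteins CBFA2T2 and CBFA2T3 do not bind DNA with sequence specificity. They bridge transcription factors to histone deacetylase complexes, and CBFA2T3 is a known component of the TAL1 complex of blood progenitors.

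The promoters of Runx2, Runx3 and Cbfa2t3 are shown because these are the 3 members that were lower in the CLP libraries of batch 2, described below. The 250 bases before an annotated start site are given 5′ to 3′ on the gene's strand, from the RefSeq table for GRCm38.p6. Capitals mark the sequence TGTGGT, which reads ACCACA where it lies on the opposite strand. Only this exact form was searched, so other forms of the core are neither marked nor counted.
Runx2: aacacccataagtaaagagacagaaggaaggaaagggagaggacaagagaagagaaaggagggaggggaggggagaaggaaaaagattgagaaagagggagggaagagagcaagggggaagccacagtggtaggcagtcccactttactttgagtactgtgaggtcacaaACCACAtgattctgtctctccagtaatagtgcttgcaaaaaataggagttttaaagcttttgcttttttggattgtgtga
Runx3: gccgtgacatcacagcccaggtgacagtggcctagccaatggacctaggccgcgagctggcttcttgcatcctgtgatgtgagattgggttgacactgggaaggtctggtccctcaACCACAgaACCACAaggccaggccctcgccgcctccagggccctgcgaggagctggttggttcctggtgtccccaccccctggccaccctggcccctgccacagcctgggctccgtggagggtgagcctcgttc
Cbfa2t3: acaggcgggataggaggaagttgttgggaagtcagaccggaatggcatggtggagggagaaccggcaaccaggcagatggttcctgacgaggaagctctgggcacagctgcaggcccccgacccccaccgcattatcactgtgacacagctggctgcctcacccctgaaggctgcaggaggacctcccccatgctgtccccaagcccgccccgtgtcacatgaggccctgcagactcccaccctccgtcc
The Runx2 window is chr17:44814628-44814877 on the minus strand, and it holds 1 match, at -80 from the RefSeq start site. In the annotation used for the symbols, Runx2 extends to position 44814797. Most of this window, with its match, thus lies inside the annotated gene. The Runx3 window, before the first of 2 annotated start sites, is chr4:135120395-135120644 on the plus strand and holds 2 matches, which are 2 bases apart and do not overlap. The Cbfa2t3 window, before the first of 2 annotated start sites, is chr8:122699110-122699359 on the minus strand. TGTGGT and ACCACA do not occur in it, and other forms of a RUNX site were not searched. Over both strands, 4614 of 32851 windows of the same length in the table (14.0%) held at least 1 match and 418 (1.27%) held at least 2. Of the 9 windows of the 6 members, 2 held a match, and both are printed here. TPM was summed per gene, so transcripts from different start sites cannot be told apart.

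In mm10, Runx1 (ENSMUSG00000022952) spans chr16:92601466-92826149, Runx2 (ENSMUSG00000039153) chr17:44495987-44814797 and Runx3 (ENSMUSG00000070691) chr4:135120652-135177990. Cbfb (ENSMUSG00000031885) lies at chr8:105170674-105217989, Cbfa2t2 (ENSMUSG00000038533) at chr2:154436481-154539356 and Cbfa2t3 (ENSMUSG00000006362) at chr8:122625141-122699109. Runx2 lies across from Supt3, which runs on the opposite strand and was listed at 9.13 to 23.17 TPM over the 12 libraries, and Cbfa2t3 lies across from Gm20388, at 4.52 to 13.78 TPM. No source used here states the strand setting of the counting, so reads shared by such a pair cannot be told apart.

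Some libraries stood apart from their labels or from their group. In the CLP libraries of batch 2, Flt3, which encodes the gate protein Flk2, was listed at 8.91 and 16.98 TPM, against 138.28 and 146.13 TPM in batch 1, although the gate is the same. Il7r, the other positive gate gene of CLP, was at 76.64 and 129.77 TPM in batch 2, against 82.30 and 86.49 TPM in batch 1. Summed over 9 B lineage markers, the CLP libraries held 4830 and 6060 TPM in batch 2, and 91.9 and 983 TPM in batch 1. The first CLP and the first LMPP library of batch 2 were rich in haemoglobin transcripts, with 7882.21 and 16929.99 TPM of Hbb-bs, and their mature neutrophil markers summed to 12000 and 26100 TPM. Mitochondrial and rRNA genes took 18.11% to 22.8% of TPM in CLP, 11.85% to 22.55% in GMP and 18% to 31.42% in LMPP. Because the CLP libraries split in this way, the 6 genes are compared within each batch as well, as are the gene lists by their counts. In bulk libraries, fewer cells of a type and less RNA per cell cannot be told apart.

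All 6 genes were detected in all 12 libraries. Cbfb was the most abundant member by mean TPM in each cell type, at 122 ± 38.3 TPM in CLP, 84.8 ± 13.8 TPM in GMP and 119 ± 21.2 TPM in LMPP (SD, n = 4 each). Its mean exceeded that of 94.1% of tested genes in CLP, 91.4% in GMP and 94.2% in LMPP. Runx3, Cbfa2t2 and Cbfa2t3 were the lowest, with type means from 10.5 to 21.5 TPM. Runx1t1, the remaining ETO-family gene, was listed at 0 in 8 of 12 libraries and at no more than 0.85 TPM in the rest.

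Runx1 was the steadiest member in CLP. It was listed at 40.15 and 39.06 TPM in CLP batch 2, against 42.10 and 40.83 TPM in CLP batch 1, a coefficient of variation of 3.14%. In GMP it was at 42.96 and 44.29 TPM in batch 2, against 32.09 and 28.13 TPM in batch 1. In LMPP it was at 39.03 and 49.49 TPM in batch 2, against 44.26 and 47.40 TPM in batch 1. The 4 CLP libraries lie within the range of the LMPP libraries, and the GMP libraries overlap both other types.

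Runx2 ranged more widely than any other member. In CLP it was listed at 13.52 and 12.17 TPM in batch 2, against 124.51 and 106.31 TPM in batch 1, a coefficient of variation of 93.1% over the 4 libraries. In GMP it was at 23.71 and 26.83 TPM in batch 2, against 19.43 and 18.15 TPM in batch 1. In LMPP it was at 66.08 and 101.94 TPM in batch 2, against 58.72 and 42.61 TPM in batch 1. The CLP libraries thus held both the highest and the lowest Runx2 values of the series, with all GMP and LMPP libraries between them. Ordered by the mean of each type and batch, Runx2 was at 115 TPM in CLP batch 1, 84 TPM in LMPP batch 2, 50.7 TPM in LMPP batch 1, 25.3 TPM in GMP batch 2, 18.8 TPM in GMP batch 1 and 12.8 TPM in CLP batch 2. Neighbours in this order did not overlap, with 2 libraries in each, but the order was set by these same values. The share of all genes whose ordered groups separate in this way was not counted.

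Runx3 was at 8.99 and 12.39 TPM in CLP batch 2, against 20.02 and 25.36 TPM in CLP batch 1. In GMP it was at 16.54 and 15.05 TPM in batch 2, against 19.06 and 14.39 TPM in batch 1, and in LMPP at 18.07 and 28.83 TPM in batch 2, against 22.47 and 16.66 TPM in batch 1. The lowest values were those of CLP batch 2, and the 3 types overlapped.

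Cbfb was at 152.11 and 156.01 TPM in CLP batch 2, against 104.40 and 77.00 TPM in CLP batch 1. In GMP it was at 95.95 and 96.99 TPM in batch 2, against 69.45 and 76.92 TPM in batch 1, and in LMPP at 107.49 and 99.55 TPM in batch 2, against 119.03 and 148.03 TPM in batch 1. The highest values of this partner gene were thus in the same 2 CLP libraries that held the lowest Runx2.

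The 2 corepressor genes moved in opposite ways across the CLP libraries. Cbfa2t2 was at 20.59 and 21.59 TPM in CLP batch 2, against 11.44 and 9.10 TPM in CLP batch 1. Cbfa2t3 was at 11.03 and 13.19 TPM in CLP batch 2, against 22.68 and 23.36 TPM in CLP batch 1. In GMP, Cbfa2t2 ranged from 9.61 to 11.55 TPM and Cbfa2t3 from 8.22 to 12.14 TPM. In LMPP, Cbfa2t2 ranged from 14.03 to 20.08 TPM and Cbfa2t3 from 13.76 to 22.29 TPM. Every GMP library lay below every LMPP library for both genes, as for 22.7% of all tested genes.

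**Figure D1:**
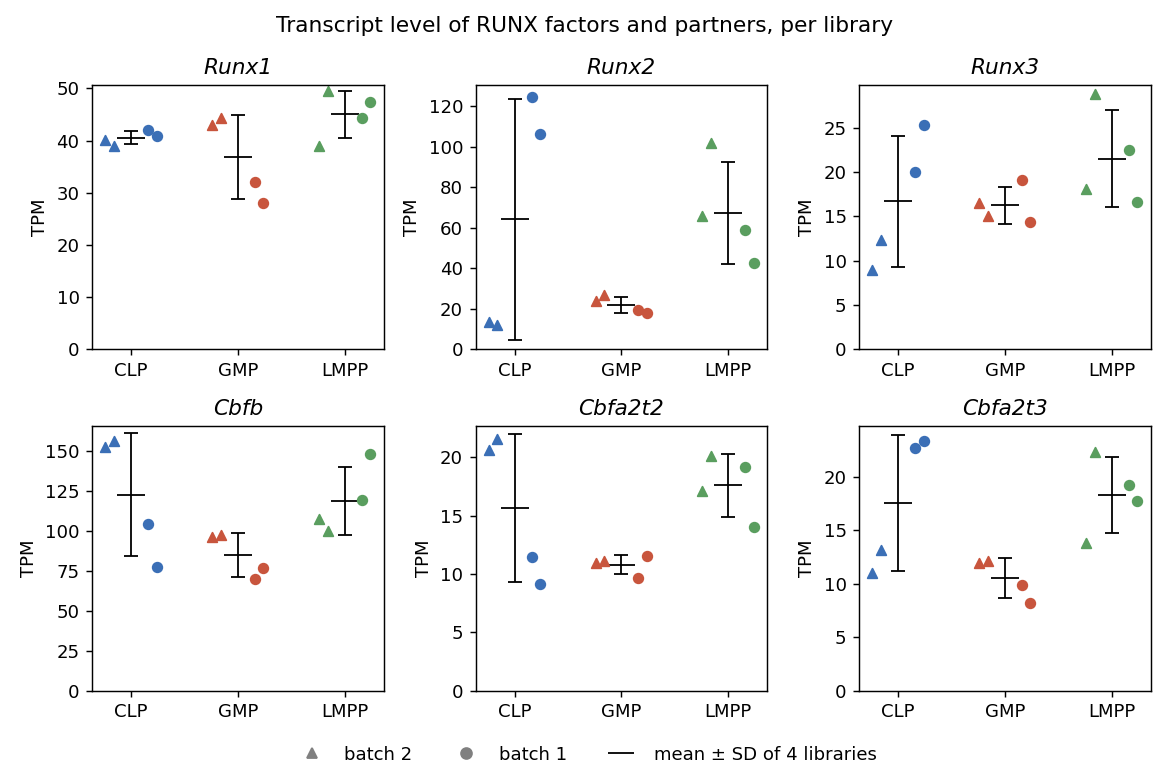
Expression of the 6 genes in TPM in every library of CLP, GMP and LMPP, with 1 panel per gene. Points are libraries, shaped by batch, with batch 2 left of batch 1 within each type, and the horizontal bar is the mean of the 4 libraries. The CLP points of Runx2 fall into 2 groups, near 13 TPM in batch 2 and above 100 TPM in batch 1.

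The difference between the CLP libraries of the 2 batches was tested in a fit with a mean for each type and batch. In CLP of batch 2 relative to batch 1, Runx2 fell by 3.07 on the log2(TPM + 1) scale (95% interval -3.57 to -2.57, limma adjusted p = 3.08e-05), and its mean TPM was 8.98-fold higher in batch 1. Of the 12718 genes tested, 40 had a larger fall. Runx3 fell by 1.03 (adjusted p = 0.0178) and Cbfa2t3 by 0.88 (adjusted p = 0.0176, limma). Cbfa2t2 rose by 0.98 (adjusted p = 0.00717) and Cbfb by 0.77 (adjusted p = 0.0058), whereas Runx1 differed by -0.06 ± 0.156 (SE, limma adjusted p = 0.782). Thus 5 of the 6 members passed the test, 2 higher and 3 lower, where 32% of all tested genes passed it, 21.3% higher and 10.7% lower. Without the second CLP library of batch 1, the calls of Runx3, Cbfb, Cbfa2t2 and Cbfa2t3 ended, with limma adjusted p of 0.12, 0.0548, 0.062 and 0.0869, while Runx2 passed in all 9 alternatives tried. The calls of Runx3 and Cbfa2t3 also ended without the first CLP library of batch 2 (adjusted p of 0.0651 and 0.0511, limma), that of Cbfa2t3 without the first CLP library of batch 1 (0.0651), and that of Cbfb after quantile scaling, where it differed by 0.31 (adjusted p = 0.151). The same scaling put Runx1 at -0.45 and past the threshold (adjusted p = 0.049, limma).

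The same batch contrast passed for 0 of the 6 members in GMP and for 0 of the 6 in LMPP, against 8.22% and 4.61% of all tested genes. At an unadjusted p under 0.05, 2 members differed in GMP and 1 in LMPP by limma. In GMP of batch 2, Runx1 was 0.52 higher on the log2 scale (adjusted p = 0.0694, limma), and in LMPP of batch 2, Runx2 was 0.70 higher (adjusted p = 0.11, limma). Whether the batch difference itself differed between cell types was tested as an interaction. For Runx2, the batch difference in CLP minus that in GMP was -3.48 on the log2 scale (limma adjusted p = 0.000608), and that in CLP minus that in LMPP was -3.77 (limma adjusted p = 0.00126). For Cbfb it was 1.13 higher in CLP than in LMPP (adjusted p = 0.019, limma). These 3 were the interactions that passed among the 18 tested for the members, where 5.48%, 8.58% and 0.0157% of all genes passed for CLP against GMP, CLP against LMPP and GMP against LMPP.

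**Figure D2:**
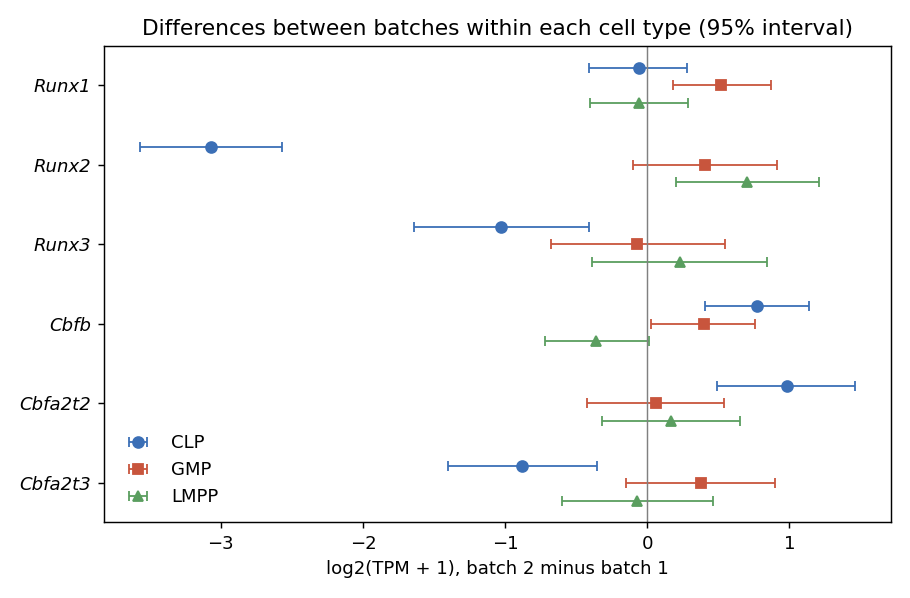
Difference of batch 2 minus batch 1 on the log2(TPM + 1) scale for each of the 6 genes within CLP, GMP and LMPP. Points are limma estimates over 2 libraries per type and batch, and bars are 95% intervals. Runx2 in CLP lies at -3.07, far to the left of every other point, and Runx1 in CLP lies at -0.06.

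Markers of other cell types also differed between the CLP batches. All 9 B lineage markers, all 9 mature neutrophil markers and 6 of 8 erythroid markers were higher in batch 2 by the same limma test. Among the neutrophil markers, Ly6g was listed at 0 in every GMP library and every library of batch 1. It passed the filter on low values only through the CLP and LMPP libraries of batch 2, so its call carries no weight of its own. Of 6 tested T and NK cell markers, 1 was higher and 1 lower. Of 6 tested megakaryocyte markers, 0 were higher and 1 lower. Of all tested genes, 21.3% were higher and 10.7% lower. The neutrophil list summed to 12000 and 1960 TPM in batch 2 and to 174 and 12.6 TPM in batch 1. The erythroid list summed to 13600 and 2480 TPM in batch 2 and to 547 and 41.1 TPM in batch 1. These 2 lists were not higher in CLP alone. In LMPP the neutrophil list summed to 26100 and 1800 TPM in batch 2, and to 210 and 30.3 TPM in batch 1. The erythroid list in LMPP summed to 28600 and 1200 TPM in batch 2, and to 589 and 193 TPM in batch 1. In GMP both lists summed lower in batch 2. Of the 7 tested plasmacytoid dendritic cell markers, 5 were lower in batch 2, and the list of 9 summed to 183 and 200 TPM in batch 2 and to 643 and 437 TPM in batch 1. Among them, Siglech was at 5.49 and 1.02 TPM in batch 2, against 70.18 and 26.51 TPM in batch 1, and Cox6a2 was at 1.39 and 2.56 TPM in batch 2, against 191.19 and 139.70 TPM in batch 1. The 2 tested markers that did not pass were Tcf4, which differed by -0.11 (adjusted p = 0.754), and Spib, at 36.78 and 45.61 TPM in batch 2 and 22.98 and 2.77 TPM in batch 1 (2.14, limma adjusted p = 0.153). In GMP and LMPP this list summed to between 111 and 201 TPM. The osteoblast and stromal list, set beside Runx2 for its role in bone, summed to 34.9 and 32.4 TPM in CLP batch 2 and to 2.92 and 4.01 TPM in CLP batch 1, and was thus higher where Runx2 was lower. Alkaline phosphatase (Alpl) made up most of it in batch 2, at 24.35 and 28.30 TPM in batch 2 and 1.72 and 0.06 TPM in batch 1. Of the defining bone markers, Dmp1 and Bglap2 were listed at 0 in all 12 libraries, and Sp7 did not exceed 0.14 TPM and Col1a1 0.05 TPM. Ibsp was at 0.13 and 1.43 TPM in CLP batch 2 and listed at 0 in CLP batch 1, and reached 0.88 TPM in LMPP, and Bglap did not exceed 0.34 TPM. The part of these cell-type differences in the RUNX results was not tested.

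GMP were compared with LMPP to ask how the family differs between the myeloid progenitor and the multipotent progenitor. All 6 members had lower means in GMP, and the 2 corepressor genes passed the test. Cbfa2t2 averaged 10.8 ± 0.838 TPM in GMP and 17.6 ± 2.68 TPM in LMPP, and Cbfa2t3 10.5 ± 1.84 TPM in GMP and 18.3 ± 3.55 TPM in LMPP (SD, n = 4 each). The differences were -0.65 ± 0.213 for Cbfa2t2 (limma adjusted p = 0.039) and -0.73 ± 0.247 for Cbfa2t3 (limma adjusted p = 0.0431) on the log2(TPM + 1) scale, with SE. Runx2, with the lowest ratio of means (0.327), averaged 22 ± 3.99 TPM in GMP and 67.3 ± 25.1 TPM in LMPP (SD, n = 4 each), a difference of -1.52 ± 0.622 (SE) that missed the threshold (limma adjusted p = 0.0868). The main fit estimates the spread of a gene over all 3 types together. The split of Runx2 between the CLP batches thus enters its SE in every pooled comparison, this one included. Cbfb differed by -0.48 (adjusted p = 0.102), Runx3 by -0.36 (adjusted p = 0.336) and Runx1 by -0.30 (adjusted p = 0.162, limma). The count of 2 of 6 members lower stands beside 28.9% of all tested genes called, 7.62% higher and 21.3% lower in GMP. The median difference of the members was -0.56, beside -0.24 for all genes. For 4 of the 6 genes (Runx2, Cbfb, Cbfa2t2 and Cbfa2t3) every GMP library lay below every LMPP library, as it did for 22.7% of all tested genes.

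Leaving out single libraries changed these calls. The Cbfa2t2 call ended without the first GMP library of batch 1, either GMP library of batch 2, either LMPP library of batch 1 or LMPP replicate 3 of batch 2, with limma adjusted p of 0.0557 to 0.123. The Cbfa2t3 call ended without either GMP library of batch 1, either LMPP library of batch 1 or LMPP replicate 3 of batch 2, with limma adjusted p of 0.0612 to 0.13. Both calls also ended after median-ratio scaling (limma adjusted p of 0.183 and 0.148). With the 8 GMP and LMPP libraries alone in the fit, Cbfa2t2 and Cbfa2t3 passed (limma adjusted p of 0.00742 and 0.0106), Runx2 passed at the same difference of -1.52 (limma adjusted p = 0.000175), and Cbfb passed as well (adjusted p = 0.0404). With 1 mean for each type and batch, a fit chosen after seeing the data, 4 members (Runx2, Cbfb, Cbfa2t2 and Cbfa2t3) were called lower in GMP, where 37% of all genes were called. In the main fit, 2 of the 7 tested plasmacytoid dendritic cell markers were lower in GMP than in LMPP, where 21.3% of all tested genes were lower. Their part was not tested.

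Within each batch, with the spread estimated over all 6 groups of type and batch, Runx2 was lower in GMP than in LMPP both times. It differed by -1.66 in batch 2 (limma adjusted p = 0.0012) and by -1.37 in batch 1 (limma adjusted p = 0.0031). In batch 2, Cbfa2t2 passed too, at -0.70 (adjusted p = 0.044, limma). In batch 1, Runx1 (-0.59, adjusted p = 0.0246), Cbfb (-0.85, adjusted p = 0.00663) and Cbfa2t3 (-0.96, limma adjusted p = 0.0191) passed. Over all tested genes, 15% were lower in batch 2 and 15.6% in batch 1. Runx1 in batch 2 averaged 43.6 TPM in GMP and 44.3 TPM in LMPP, against 30.1 TPM in GMP and 45.8 TPM in LMPP in batch 1.

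CLP were compared with GMP to set the lymphoid against the myeloid progenitor. Over the 4 libraries of each type, 0 of the 6 members passed the test by limma, where 23.9% of all tested genes did, 13.9% higher and 9.96% lower in CLP, and the groups overlapped for all 6, where 20.9% of all tested genes did not overlap. At an unadjusted p under 0.05, 2 members (Cbfb and Cbfa2t3) differed. Cbfa2t3 averaged 17.6 ± 6.37 TPM in CLP and 10.5 ± 1.84 TPM in GMP (SD, n = 4 each), a difference of 0.63 ± 0.247 (SE, limma adjusted p = 0.084). Cbfb averaged 122 ± 38.3 TPM in CLP and 84.8 ± 13.8 TPM in GMP (SD, n = 4 each), a difference of 0.48 ± 0.206 (SE, limma adjusted p = 0.112). Runx2 averaged 64.1 ± 59.7 TPM in CLP and 22 ± 3.99 TPM in GMP (SD, n = 4 each), and its difference of 0.81 ± 0.622 had an adjusted p of 0.371 by limma. All 9 B lineage markers and 5 of 7 tested plasmacytoid dendritic cell markers were also higher in CLP than in GMP, and their part in these values was not tested.

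The within-batch values of Runx2 had opposite signs. In batch 2 it was lower in CLP, at 12.8 TPM in CLP and 25.3 TPM in GMP (log2 difference -0.92, limma adjusted p = 0.0144). In batch 1 it was 6.14-fold higher in CLP, at 115 TPM in CLP and 18.8 TPM in GMP (log2 difference 2.55, limma adjusted p = 9.69e-05). In batch 2, Cbfb (0.67, adjusted p = 0.0147) and Cbfa2t2 (0.88, limma adjusted p = 0.0152) were higher in CLP. In batch 1, Cbfa2t3 was higher in CLP, at 23 TPM in CLP and 9.07 TPM in GMP (log2 difference 1.26, limma adjusted p = 0.0056). The shares of all tested genes called were 25.7% in batch 2 and 16.9% in batch 1. Without the 2 CLP libraries of batch 2, a setting chosen after seeing the data, Runx2 (2.63, limma adjusted p = 1.39e-05) and Cbfa2t3 (1.15, limma adjusted p = 0.00407) were called higher in CLP. Cbfa2t3 was also called without the first CLP library of batch 2 (adjusted p = 0.034, limma), and with 1 mean for each type and batch 3 members (Runx2, Cbfb and Cbfa2t3) were called higher in CLP, where 31.5% of all genes were called. Cbfb, at 0.66, was also called without the second CLP library of batch 1 (adjusted p = 0.0297, limma).

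Against LMPP, a multipotent population with lymphoid potential, CLP again had 0 of 6 members past the limma test and 0 at an unadjusted p under 0.05, where 10% of all tested genes passed it, 2.8% higher and 7.23% lower in CLP, and all 6 genes overlapped between the types, where 11.1% of all tested genes did not. The pooled differences were -0.14 for Runx1, -0.70 for Runx2, -0.42 for Runx3, 0.00 for Cbfb, -0.23 for Cbfa2t2 and -0.10 for Cbfa2t3, with limma adjusted p between 0.34 and 0.992. With 1 mean for each type and batch, Runx2 was called lower in CLP (limma adjusted p = 0.0153), where 18.3% of all genes were called. Within batch 2, Runx2 was at 12.8 TPM in CLP and 84 TPM in LMPP, a log2 difference of -2.59 (limma adjusted p = 0.000203). Within batch 1 it was at 115 TPM in CLP and 50.7 TPM in LMPP, a log2 difference of 1.19 (limma adjusted p = 0.0198). In batch 2, Runx3 was lower in CLP (-1.04, adjusted p = 0.0241) and Cbfb higher (0.57, limma adjusted p = 0.034). The shares of all genes called were 22.5% in batch 2 and 6.36% in batch 1. The Cbfb difference had the opposite sign in batch 1, at 90.7 TPM in CLP and 134 TPM in LMPP (-0.56, limma adjusted p = 0.0757). Runx1 differed by less than 1 SE in both batches, by -0.15 in batch 2 and -0.14 in batch 1 (limma adjusted p of 0.519 and 0.652, 95% intervals -0.49 to 0.20 and -0.49 to 0.21). Of the 9 B lineage markers, 8 were also higher in CLP than in LMPP over the 4 libraries of each type, and their part in these values was not tested.

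**Figure D3:**
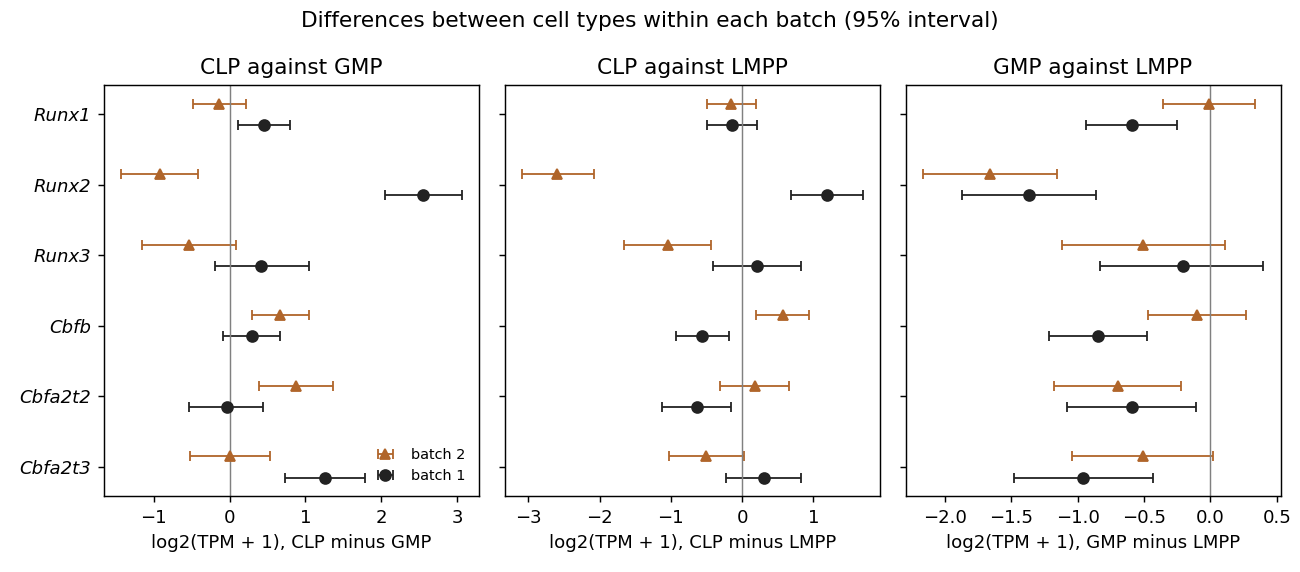
Differences between cell types within each batch on the log2(TPM + 1) scale, for CLP minus GMP, CLP minus LMPP and GMP minus LMPP. Points are limma estimates from 2 libraries per type and batch, with batch 2 drawn above batch 1, and bars are 95% intervals. Runx2 lies on opposite sides of 0 in the 2 batches in both comparisons with CLP, and at -1.66 and -1.37 in GMP against LMPP.

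TPM is corrected for transcript length, so the levels of the 3 RUNX genes can be added within a library. Their sum was 62.7 and 63.6 TPM in CLP batch 2 and 187 and 172 TPM in CLP batch 1, between 60.7 and 86.2 TPM in GMP, and between 107 and 180 TPM in LMPP. Runx2 supplied 21.6% and 19.1% of that sum in CLP batch 2 and 66.7% and 61.6% in CLP batch 1. In GMP its share was 29.3 ± 1.58% and in LMPP 49.2 ± 7.42% (SD, n = 4 each), and these 2 groups did not overlap. Runx1 was the main RUNX transcript in CLP batch 2, at 64.1% and 61.4% of the sum, in every GMP library, at 45.5% to 51.6%, and in the second LMPP library of batch 1, at 44.4%. Runx3 never exceeded 27% of the sum in any library.

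The ratio of Cbfb to the RUNX sum compares the partner's transcript with those of the factors it joins. It was 2.43 and 2.45 in CLP batch 2 and 0.559 and 0.446 in CLP batch 1. It lay between 0.984 and 1.27 in GMP and between 0.552 and 1.39 in LMPP. The CLP libraries of batch 2 were thus above, and the second CLP library of batch 1 below, every other library. The ratio of Cbfa2t3 to Cbfa2t2 was 0.536 and 0.611 in CLP batch 2 and 1.98 and 2.57 in CLP batch 1, and lay between 0.712 and 1.26 in the 8 GMP and LMPP libraries.

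**Figure D4:**
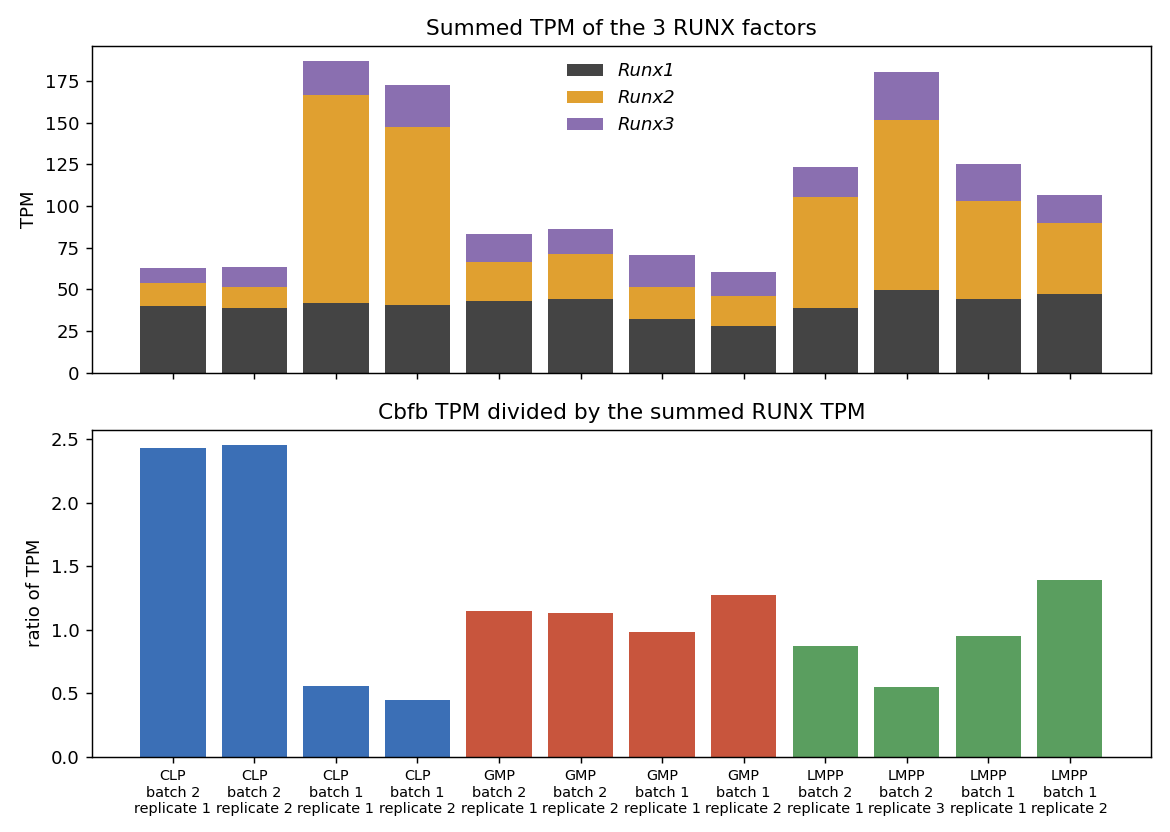
Summed TPM of Runx1, Runx2 and Runx3 in each of the 12 libraries, stacked by gene (top), and Cbfb TPM divided by that sum (bottom), with batch 2 left of batch 1 within each type. The 2 CLP libraries of batch 2 have the smallest Runx2 segments and a Cbfb ratio of 2.43 and 2.45, and no other library exceeds 1.39.

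Across the 12 libraries, the genes whose log2(TPM + 1) was most like that of a member were listed by Pearson's r over the 8790 genes averaging 5 TPM or more. Runx2 was most like Rnf220 (r = 0.97), Slc9a9 (0.96) and Tns1 (0.96), and Runx3 was most like Cd151 (0.92). Cbfb was most like Cebpg (0.95), Cbfa2t2 like Anapc1 (0.95), and Cbfa2t3 like Maml3 (0.95). Tns1, which encodes the focal adhesion protein tensin 1, was at 1.74 and 2.99 TPM in CLP batch 2, against 26.93 and 23.83 TPM in CLP batch 1. Slc9a9, which encodes a sodium-proton exchanger of endosomes, was at 5.05 and 2.33 TPM in CLP batch 2, against 17.03 and 19.46 TPM in CLP batch 1. Among the members, Runx2 was most like Cbfa2t3 (r = 0.87) and Runx3 (0.83), Cbfb was most like Cbfa2t2 (0.76), and the lowest value was that of Runx3 with Cbfb (-0.49). These values describe 12 libraries that share their type and batch, and the split of CLP enters all of them.

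Runx2 was also set beside Flt3, a gate gene that differed between the CLP batches. Flt3 was picked from 8 gate genes because it moved with Runx2, so the split below follows from that choice. In GMP, Flt3 was between 2.80 and 3.67 TPM, and in LMPP between 101.58 and 156.00 TPM. In CLP of batch 2 relative to batch 1, Flt3 fell by 3.42 (adjusted p = 3.52e-05) and Cd34, a surface protein of early progenitors, by 3.01 (limma adjusted p = 1.43e-05), beside 3.07 for Runx2. Dntt, which encodes the terminal transferase of early lymphoid cells, differed by -0.57 (limma adjusted p = 0.0648). Libraries with Flt3 above 100 TPM had Runx2 at 42.61 TPM or more, and those with less Flt3 had Runx2 at 26.83 TPM or less. Flt3 was not the only gate gene to split the libraries this way, as Ly6a, which encodes the gate protein Sca1, did so with a narrow gap. Ly6a was at 27.32 and 2.24 TPM in CLP batch 2, against 37.58 and 29.89 TPM in CLP batch 1. In GMP it was between 4.86 and 9.86 TPM, and in LMPP between 85.99 and 156.1 TPM. Kit and Cd34 did not split the libraries this way. Kit was at 27.61 and 46.71 TPM in CLP batch 2, against 15.26 and 20.91 TPM in CLP batch 1. Cd34 was between 102.26 and 145.75 TPM in GMP, beside 111.33 and 163.76 TPM in CLP batch 1.

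**Figure D5:**
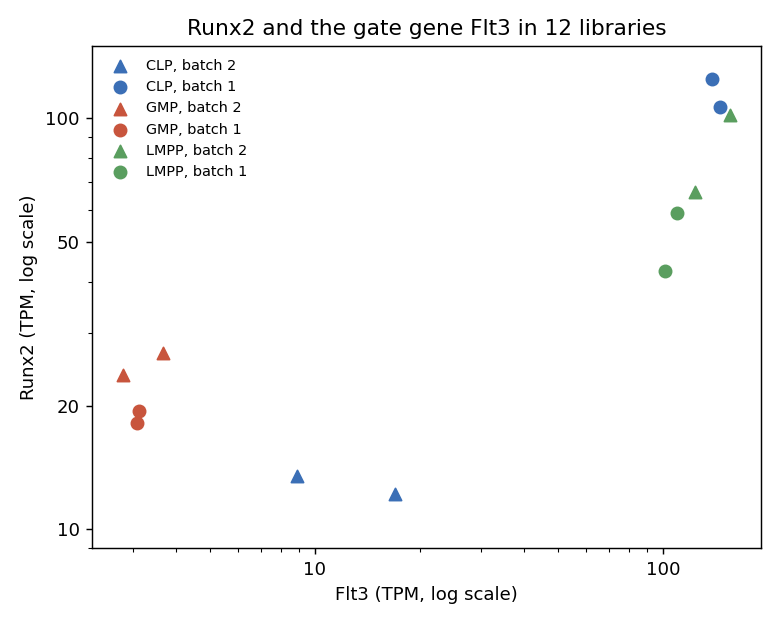
Runx2 against Flt3 in TPM in the 12 libraries, both on log axes, coloured by cell type and shaped by batch. The CLP libraries of batch 2 lie in the lower left with the GMP libraries, and those of batch 1 in the upper right with the LMPP libraries. Flt3 was picked among the gate genes because it moved with Runx2.

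Genes that work with the members were counted from fixed lists. Of 12 tested RUNX corepressors, 4 were higher and 0 lower in CLP than in GMP, where 13.9% of all genes were higher and 9.96% lower, with a median difference of 0.51 beside 0.09 for all genes. Within batches, 4 were higher and 0 lower in batch 2 (Tle3, Tle4, Hdac1 and Sin3b), where 14.2% of all genes were higher. In batch 1, 2 were higher and 0 lower (Sin3a and Tle2), where 9.98% of all genes were higher. No corepressor was called in both batches. Over the 4 libraries of each type, the calls were led by the Groucho-family gene Tle3 and the scaffold genes Sin3a and Sin3b. Tle3 averaged 40.3 ± 12.9 TPM in CLP and 20.9 ± 3.71 TPM in GMP (SD, n = 4 each), a log2 difference of 0.88 (limma adjusted p = 0.00498). It differed by 1.17 within batch 2 (adjusted p = 0.00539) and by 0.59 within batch 1 (limma adjusted p = 0.118). In CLP against LMPP, 2 of 12 were higher (Sin3b, 0.68, and Tle3, 0.65) and 0 lower, with limma adjusted p of 0.0119 and 0.0453, where 2.8% of all genes were higher. Within batch 2, 3 were higher and 1 lower, where 9.4% of all genes were higher and 13.1% lower. Within batch 1, 0 were higher and 1 lower (2 at an unadjusted p under 0.05 in either direction), where the shares were 1.53% and 4.84%. Sin3b and Tle3 passed in batch 2 but not in batch 1 (limma adjusted p of 0.12 and 0.276). In GMP against LMPP, 2 of 12 were lower and 0 higher, where 21.3% of all genes were lower, with a median of -0.26 beside -0.24 for all genes. Of these, Tle2 averaged 0.645 ± 0.492 TPM in GMP and 7.03 ± 2.83 TPM in LMPP (SD, n = 4 each), a log2 difference of -2.26 (limma adjusted p = 0.00356). In CLP of batch 2 against batch 1, 6 of 12 were higher, where 21.3% of all genes were, led by Tle4 (1.13, adjusted p = 0.0134) and Hdac2 (1.10, limma adjusted p = 0.00174), and Tle2 was lower (-1.64, limma adjusted p = 0.0339).

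Of 10 tested RUNX coactivators and modifying enzymes, 4 were higher and 1 lower in CLP than in GMP (13.9% and 9.96% of all genes), 0 passed in CLP against LMPP by limma (1 at an unadjusted p under 0.05, median -0.01 beside -0.17 for all genes), and 1 was higher and 4 lower in GMP than in LMPP (7.62% and 21.3% of all genes). In CLP against GMP, 3 were higher and 1 lower within batch 2, where 14.2% of all genes were higher and 11.5% lower. Within batch 1, 3 were higher and 0 lower, where the shares were 9.98% and 6.9%. In CLP against LMPP, 0 were higher and 1 lower within batch 2, where 9.4% of all genes were higher and 13.1% lower. Within batch 1, 0 passed (1 at an unadjusted p under 0.05, limma), where the shares were 1.53% and 4.84%. The kinase gene Pim1 averaged 15 ± 4.21 TPM in CLP, 5.33 ± 2.26 TPM in GMP and 21.7 ± 8.39 TPM in LMPP (SD, n = 4 each). It was 1.38 higher in CLP than in GMP (limma adjusted p = 0.00274) and 1.85 lower in GMP than in LMPP (limma adjusted p = 0.000435) on the log2 scale. Against GMP, Pim1 in CLP differed by 0.85 within batch 2 (limma adjusted p = 0.0583) and by 1.91 within batch 1 (limma adjusted p = 0.00208). The acetyltransferase genes Crebbp and Kat6a were both higher in CLP than in GMP (0.93 and 0.78) and both lower in GMP than in LMPP (-0.70 and -0.76), with limma adjusted p of 0.00054, 0.00585, 0.00315 and 0.00596. In CLP against GMP, Crebbp passed within both batches (0.94 in batch 2 and 0.92 in batch 1), and Kat6a passed within batch 2 (limma adjusted p = 0.00664) but not batch 1 (limma adjusted p = 0.0942). The 1 lower gene, named after its values were seen, was Cdk6, whose product binds RUNX1. It averaged 182 ± 16 TPM in CLP and 255 ± 48.5 TPM in GMP (SD, n = 4 each), a difference of -0.47 (limma adjusted p = 0.0375), which was -0.74 within batch 2 (adjusted p = 0.00667) and -0.21 within batch 1 (limma adjusted p = 0.404). In CLP of batch 2 against batch 1, 3 of 10 were higher and 0 lower, where 21.3% of all genes were higher and 10.7% lower, with a median of 0.25 beside 0.13.

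Of 11 TAL1 complex genes, the known partners of Cbfa2t3, 6 were lower and 0 higher in GMP than in LMPP, where 21.3% of all genes were lower and 7.62% higher, with a median of -0.56 beside -0.24 for all genes. Within batch 2, 3 were lower and 0 higher, where 15% of all genes were lower and 7.15% higher. Within batch 1, 5 were lower and 1 higher, where the shares were 15.6% and 4.45%. Lmo2, a bridging subunit of the complex, averaged 51.5 ± 16.7 TPM in CLP, 125 ± 30.5 TPM in GMP and 329 ± 41.3 TPM in LMPP (SD, n = 4 each). It was lower in CLP than in LMPP (-2.71, limma adjusted p = 0.000122, and -3.16 within batch 2 and -2.27 within batch 1, both past the threshold) and lower in GMP than in LMPP (-1.42, limma adjusted p = 0.00165). Tal1 itself averaged 3.69 ± 1.76 TPM in CLP, 7 ± 3.11 TPM in GMP and 13.9 ± 4.2 TPM in LMPP (SD, n = 4 each). Gfi1b, a repressor gene of erythroid and megakaryocytic cells, averaged 2.06 ± 0.974 TPM in GMP and 10.4 ± 4.07 TPM in LMPP (log2 difference -1.88, limma adjusted p = 0.00425). In CLP against GMP, 3 were higher and 4 lower (13.9% and 9.96% of all genes), among them Gfi1b (2.25, limma adjusted p = 0.00154), Gata2, a stem and mast cell factor gene (-2.68, limma adjusted p = 0.000398), and the myeloid repressor gene Gfi1 (-1.70, limma adjusted p = 0.00228). Within batches, 3 were higher and 2 lower in batch 2, and 4 higher and 2 lower in batch 1. The shares of all genes higher and lower were 14.2% and 11.5% in batch 2, and 9.98% and 6.9% in batch 1. Gfi1b and Gata2 passed in both, and Gfi1 passed in batch 1 (-2.55) but not in batch 2 (-0.85, limma adjusted p = 0.0561). In CLP against LMPP, 1 was higher and 3, namely Lmo2, Gata2 and Tal1, were lower (2.8% and 7.23% of all genes). Within each batch 1 was higher and 4 lower, these 3 among them. The shares of all genes higher and lower were 9.4% and 13.1% in batch 2, and 1.53% and 4.84% in batch 1. In CLP of batch 2 against batch 1, 2 were higher and 3 lower, where 21.3% of all genes were higher and 10.7% lower.

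Of 17 tested blood genes known as RUNX targets, 5 were higher and 8 lower in CLP than in GMP (13.9% and 9.96% of all genes), with a median of -0.31 beside 0.09 for all genes. In GMP against LMPP, 5 were higher and 4 lower (7.62% and 21.3% of all genes), with a median of 0.10 beside -0.24. Within batches, 5 were higher and 7 lower in CLP than in GMP in batch 2, where 14.2% of all genes were higher and 11.5% lower. In batch 1, 4 were higher and 7 lower, where the shares were 9.98% and 6.9%. The myeloid granule genes Elane (-7.48, limma adjusted p = 0.000146) and Mpo (-5.76, limma adjusted p = 3.62e-05) were lower in CLP than in GMP, and passed within both batches. The B lineage genes Ebf1 (5.54, limma adjusted p = 0.00067) and Cd79a (5.21, limma adjusted p = 0.00741) were higher. Ebf1 was at 222.05 and 288.12 TPM in CLP batch 2 and at 43.41 and 4.00 TPM in CLP batch 1, and at 0.87 TPM or less in GMP, with differences of 7.90 within batch 2 (adjusted p = 0.000146) and 3.18 within batch 1 (limma adjusted p = 0.024). Cd79a was at 295.36 and 345.24 TPM in CLP batch 2 and at 83.78 and 0.82 TPM in CLP batch 1, and at up to 1.63 TPM in GMP. The second CLP library of batch 1 thus lay within the GMP range for Cd79a, which differed by 8.12 within batch 2 (adjusted p = 0.00163) and by 2.30 within batch 1 (limma adjusted p = 0.268). Mpo averaged 474 ± 619 TPM in CLP and 14900 ± 932 TPM in GMP (SD, n = 4 each). Rag1, a recombinase gene of lymphoid cells, averaged 36.2 ± 24 TPM in CLP and 1.45 ± 1.7 TPM in LMPP (SD, n = 4 each), a log2 difference of 3.75 (limma adjusted p = 0.00168), which was 4.11 within batch 2 (adjusted p = 0.00446) and 3.38 within batch 1 (limma adjusted p = 0.0275). In CLP against LMPP, 4 were higher and 3 lower (2.8% and 7.23% of all genes). The counts were the same within batch 2, where 9.4% of all genes were higher and 13.1% lower. Within batch 1, 3 were higher and 2 lower, where the shares were 1.53% and 4.84%. In CLP of batch 2 against batch 1, 4 were higher and 2 lower, where 21.3% of all genes were higher and 10.7% lower, with a median of 0.71 beside 0.13 for all genes. Gfi1 and Gfi1b stand in both this list and the TAL1 list, and Cd79a, Ebf1, Pf4 and Itga2b also mark other blood lineages.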

How the data were processed

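Bulk RNA sequencing of 12 libraries was used as deposited by the authors, as TPM (transcripts of a gene scaled for its length and to a fixed library sum) per Ensembl gene ID. The submitters' processing notes name Bowtie2 2.2.0, RSEM 1.2.12, edgeR 3.10.0 and mm10, without their settings or order. TPM keeps no depth, so the depth of the libraries is unknown and no counting interval can be given. Symbols came from the GENCODE M21 annotation, for 37607 of 38924 IDs. The table holds 17 further columns that match no sample and were not used.

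Values were tested as log2(TPM + 1) with limma 3.58.1 in R 4.3.3, with cell type and an additive batch term over all 12 libraries, on genes of at least 1 TPM in at least 4 libraries. P-values were Benjamini-Hochberg adjusted over 12718 genes and called below 0.05. Fold changes on this scale understate the change of low genes. A fit with 1 mean per type and batch, added after seeing the data, gave batch contrasts, interactions and within-batch values. Members and lists were chosen with earlier results of these data known. Genes named from a list were up to 3 called genes with the largest difference per comparison. Genes most like a member were its 3 highest by Pearson's r. A few genes that these rules name are not reported here. The steps were tested on simulated data. Alternatives were other scalings, filters, pseudocounts, batch handling and leaving out libraries. The deviations of same-numbered libraries had r from -0.11 to 0.17 over 10 pairs, highest for the haemoglobin-rich CLP and LMPP libraries of batch 2 and at most 0.03 for the other 9, so numbers were not used to pair libraries.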

Additional observations from a re-analysis of the deposited data

Results flagged for a closer look

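The effect of cell type differed between the batches for Runx2 and Cbfb, by a test of the interaction in limma across 12718 genes. For Runx2, the difference of batch 2 minus batch 1 in CLP less that in GMP was -3.48 on the log2 scale (SE 0.32, adjusted p = 0.000608, limma), and in CLP less that in LMPP it was -3.77 (SE 0.32, adjusted p = 0.00126, limma). Both CLP libraries of batch 2 lay below both of batch 1, while both GMP and both LMPP libraries of batch 2 lay above both of batch 1. For Cbfb, the batch difference was 1.13 higher in CLP than in LMPP (SE 0.234, adjusted p = 0.019, limma), with both CLP libraries of batch 2 above both of batch 1 and both LMPP libraries of batch 2 below both of batch 1. In the same CLP libraries of batch 2, Flt3 and Cd34 were lower and the B lineage, neutrophil and erythroid lists higher. The neutrophil and erythroid sums were also higher in LMPP of batch 2, and were lower in GMP of batch 2. The part of these differences in the Runx2 and Cbfb values was not tested. No library stood apart from the other 3 of its type for any of the 6 genes, by a rule that sets the gap at either end of the 4 values against their range. With 4 values this rule has little power. It looks at single libraries, so it cannot flag a split of 2 against 2, as for Runx2 in CLP.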

How the results depend on the processing

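All 6 genes kept their sign in GMP against LMPP under every alternative run. In CLP against GMP, batch 1 alone or with the spread of all groups turned Runx3 to 0.42 and Cbfa2t2 to -0.04, and batch 2 alone or with that spread turned Runx1 to -0.14 and Runx2 to -0.92. Without both CLP libraries of batch 2, Runx3 was 0.50 and Cbfa2t2 -0.02, and without the haemoglobin-rich pair Runx3 was 0.17. In CLP against LMPP, batch 1 gave Runx2 1.19, Runx3 0.21, Cbfb -0.56 and Cbfa2t3 0.30, and batch 2 gave Cbfa2t2 0.18. Without both CLP libraries of batch 2, Runx1 was 0.00, Runx2 1.11, Runx3 0.14, Cbfb -0.37 and Cbfa2t3 0.41, and without the haemoglobin-rich pair Cbfb was -0.16. Median-ratio scaling gave Runx1 0.02 and Cbfa2t3 0.06, quantile scaling gave Cbfb -0.06 and Cbfa2t3 0.06, and rescaling without mitochondrial and rRNA genes gave Cbfb -0.07. Leaving out 1 library at a time gave -0.26 to 0.16 for Runx3 in CLP against GMP, and -0.24 to 0.07 for Cbfa2t3 and -0.13 to 0.18 for Cbfb in CLP against LMPP.
The replicate block gave Cbfb -0.17 and Cbfa2t3 0.02 in CLP against LMPP, and called 212 genes there and 2214 in GMP against LMPP, but the numbers did not pair the libraries. In GMP against LMPP the calls of Cbfa2t2 and Cbfa2t3 ended under this block (limma adjusted p of 0.112 and 0.172), with no filter on low values (0.0596 and 0.0752), after quantile scaling (0.176 and 0.178), with no batch term (0.1 and 0.0672) and in batch 2 alone (0.0993 and 0.312), and that of Cbfa2t2 in batch 1 alone (0.0799).

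Of 12718 genes, the main analysis called 3040 in CLP against GMP, 1276 in CLP against LMPP, 3676 in GMP against LMPP and 4073 between the CLP batches. With no batch term these counts were 1944, 609 and 2358 for the 3 type comparisons, and in batch 2 alone 1772 in CLP against GMP and 1089 in GMP against LMPP. In CLP against LMPP, 536 genes passed with only those 2 types, 2333 with 1 mean per type and batch, 809 in batch 1 and 2856 in batch 2 with the spread of all groups. Leaving out 1 library at a time gave 2075 to 3100 in CLP against GMP, 606 to 1470 in CLP against LMPP (606, 760 and 656 without LMPP batch 1 replicate 1, batch 2 replicate 1 and batch 2 replicate 3), 2557 to 4547 in GMP against LMPP, and 2249 to 5014 between the CLP batches, lowest without the second CLP library of batch 1. Higher and lower calls were 1773 and 1267 in CLP against GMP, 356 and 920 in CLP against LMPP, 969 and 2707 in GMP against LMPP and 2711 and 1362 between CLP batches as deposited. Under median-ratio scaling they were 1523 and 1699, 602 and 560, 1869 and 1717, and 1997 and 1916, and under quantile scaling 1426 and 1588, 595 and 635, 1659 and 1552, and 1696 and 1741. Median-ratio scaling moved the median of all genes by -0.08, 0.15, 0.22 and -0.17 in these 4 comparisons, and quantile scaling by -0.11, 0.17, 0.27 and -0.12. The causes of these changes were not tested, beyond fewer libraries or genes where a setting removes them.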
